A study of Mus musculus with 7 samples.

Results

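Regions of open chromatin that had a peak in all 3 whole teeth and in none of the other 4 libraries are the subject here. Their number was 1363 of 77136 merged regions, a share of 1.77%. They were selected on measured values: the 38000 peaks with the smallest p-values on chromosomes 1 to 19 were taken from each of 7 mouse peak lists, with ties settled by peak signal, and peaks sharing 1 bp or more were merged. A merged region was kept if it held a peak of the lower incisor, the lower molar and the upper molar, and no peak of 2 ectoderm and 2 Sox2-positive libraries. The presence and absence of peaks is therefore given as a description and was not tested.

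The chromatin was assayed by ATAC-seq, in which a transposase inserts adapters into accessible DNA, in the Omni-ATAC form of the protocol. Whole lower incisors, whole lower first molars and whole upper first molars of mice at postnatal day 2 gave 1 library each, so no value that rests on a single tooth has a replicate. From embryos of day 11.5, the first pharyngeal arch ectoderm was peeled off after Dispase II treatment and gave 2 libraries. Sox2-positive cells, which the labels call dental epithelial stem cells, gave 2 libraries: they were sorted by GFP from the labial cervical loop of the day 2 lower incisor, in a line whose GFP is driven by the endogenous Sox2 promoter. The labels do not say whether replicates came from separate animals or whether animals were pooled, and strain and genotype of the ectoderm and whole-tooth animals are not given in the sources used here.

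A tooth consists of an epithelium, which makes enamel, and a mesenchyme, which gives rise to pulp and to the odontoblasts that make dentin, with vessels, nerves and blood cells among them. Accessible sites away from promoters often include enhancers, which tend to be used in particular cell types. Ectoderm and Sox2-positive cells are both epithelial, whereas a whole tooth is a mixture, and in such bulk tissue fewer cells of a type and less open chromatin per cell cannot be told apart.

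The lists differed in length, from 38326 peaks on chromosomes 1 to 19 in the second Sox2-positive library to 80850 in the first ectoderm library, and none holds read counts, so sequencing depth is unknown. A list cut at 38000 therefore ended at different significance: the last peak taken had a −log10 p of 4.79 and 3.82 in the 2 ectoderm libraries, 3.33 and 2.94 in the 2 Sox2-positive libraries, and 4.01, 4.28 and 4.27 in the incisor, lower molar and upper molar. In each library the first peak left out had the same −log10 p as the last one taken, and only the signal separated them (434.1 against 434.0 in the incisor, for example). Of 868 regions at 3 lists of mesenchyme genes, 34.6% and 35.3% had a peak in the ectoderm libraries, 43.1% and 52.1% in the Sox2-positive libraries, and 55.2%, 43.0% and 41.8% in the incisor, lower molar and upper molar. Of 543 regions at 2 lists of epithelium genes the shares were 55.8% and 56.9%, 42.9% and 46.2%, and 41.6%, 54.7% and 51.2% in the same order. Over all regions assigned to a gene they were 50.3% and 50.5%, 49.1% and 49.4%, and 50.6%, 50.3% and 50.1%. At the 3 mesenchyme lists together, the Sox2-positive shares thus lay within the range of the whole teeth. Singly this did not always hold. For odontoblast and bone matrix genes the first Sox2-positive library had 33.9%, below the lowest tooth (37.8%). For collagen and matrix genes the second had 59.1%, above the highest tooth (57.6%). The part these shares play in the results was not tested.

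Few of the regions shared by the teeth were free of peaks elsewhere. Of 24669 regions with a peak in all 3 teeth, 1363 (5.53%) had no other peak, 4853 (19.7%) were shared with the Sox2-positive pair of libraries but not with ectoderm, and 14786 (59.9%) had a peak in all 7 libraries. A peak in the first Sox2-positive library alone separated 823 further regions from the rule, and one in the second Sox2-positive library alone 750. The ectoderm libraries alone separated fewer, 34 in the first and 46 in the second. Among the 823, the single excluded peak had a median rank of 27481 in the first Sox2-positive list, with the best at 8667, and among the 750 a median of 23850.5 in the second, with the best at 4860. The peaks that kept these regions out were thus not confined to the low end of the Sox2-positive lists.

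**Figure D1:**
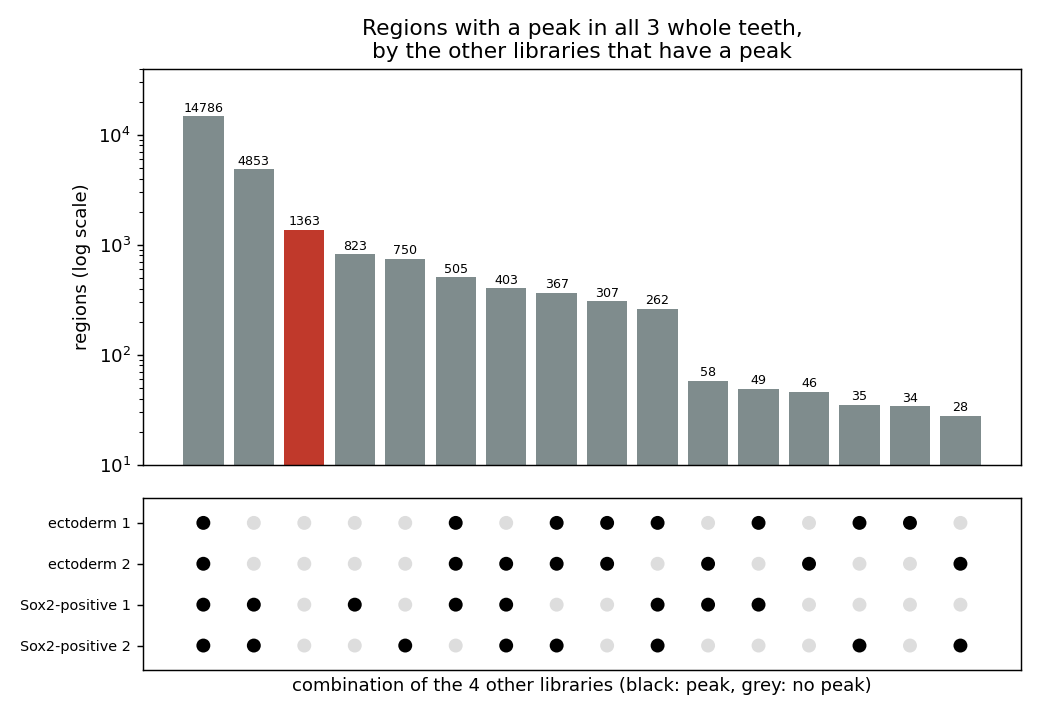
Number of regions with a peak in all 3 whole teeth (vertical axis, log scale) for each combination of peaks in the 4 other libraries, drawn as black dots for a peak and grey dots for none. The combination with no peak elsewhere held 1363 regions, against 14786 with a peak in all 4.

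The absence from ectoderm repeated between replicates more closely than the absence from Sox2-positive cells. When regions were chosen without the first ectoderm library, 34 of 1397 had a peak in it (2.43%, Wilson 95% interval 1.75 to 3.38), and without the second, 46 of 1409 had one (3.26%, 2.46 to 4.33). Of all regions with a peak in the 3 teeth, 66.3% and 66.9% had a peak in these libraries. When regions were chosen without the first Sox2-positive library, 823 of 2186 had a peak in it (37.6%, 35.6 to 39.7), and without the second, 750 of 2113 had one (35.5%, 33.5 to 37.6). The corresponding shares of all regions in the 3 teeth were 88.1% and 87.1%. These held-out shares lay below the shares of all tooth regions in all 4 libraries, and the intervals cover the counting of regions only, since regions are not replicates of a condition.

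Each tooth was also left out of the choice in turn. Of 1577 regions chosen without the lower molar, 86.4% had a lower molar peak (84.7 to 88.0), against 95.1% of all regions in the other 2 teeth. Of 1897 chosen without the upper molar, 71.9% had an upper molar peak (69.8 to 73.8), against 92.7%. Of 5092 chosen without the incisor, 26.8% had an incisor peak (25.6 to 28.001), against 74.8%. All 3 shares lay below those of tooth regions chosen without regard to the other libraries. Most regions found in both molars and in no ectoderm or Sox2-positive library were thus outside the incisor list.

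The regions ranged from high to low places in the tooth lists, with medians past the middle. The rank by p-value, with 1 the most significant of 38000, ran from 6163 to 37999 in the incisor with a median of 27420. It ran from 3171 to 37887 with a median of 20981 in the lower molar, and from 3763 to 37979 with a median of 24027 in the upper molar. The lower part of the list, past its middle rank, held 82.5% of them in the incisor, 58.5% in the lower molar and 67.9% in the upper molar. Regions that also had both Sox2-positive peaks but no ectoderm peak had better median ranks, 13700, 16122 and 16688 in the incisor, lower molar and upper molar. Regions of both molars alone had later ones, 26321 in the lower and 26109 in the upper molar, as did regions of the incisor alone with 31170.5.

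**Figure D2:**
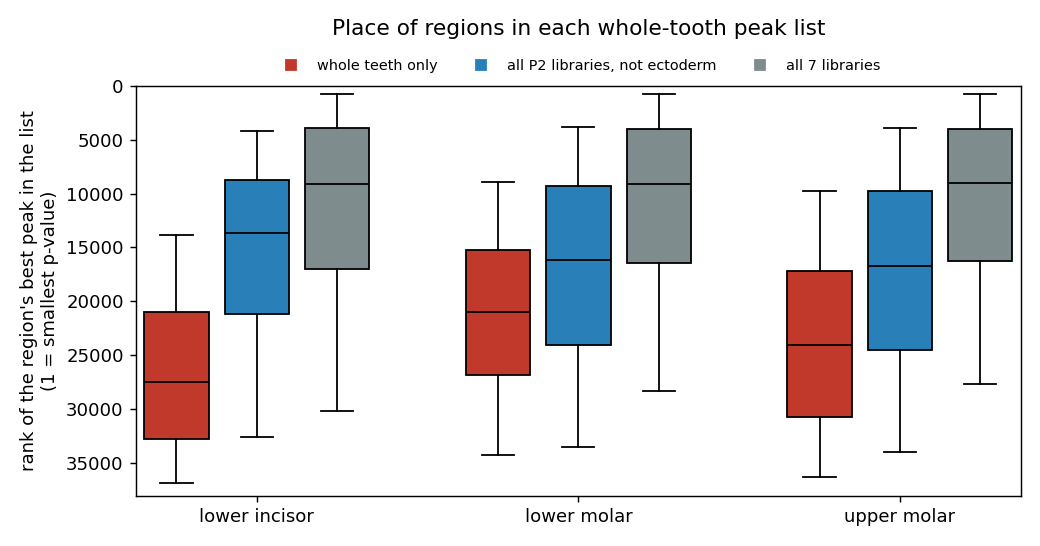
Rank of each region's best peak in the 3 whole-tooth lists (vertical axis, 1 is the smallest p-value, reversed), with boxes for the whole-tooth-only regions and for compared classes. The whole-tooth-only medians were 27420 in the incisor, 20981 in the lower molar and 24027 in the upper molar.

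The order of the teeth differed from that of the other shared regions. The lower molar gave the best rank in 721 of the 1363 (52.9%), the upper molar in 332 (24.4%) and the incisor in 310 (22.7%). In regions with all day 2 peaks and no ectoderm peak the incisor gave the best rank in 50.7%, the lower molar in 25.5% and the upper molar in 23.8%. Ranks were part of the selection and each tooth is 1 library, so this is a description. Within the regions the 3 teeth placed their summits close together: among 1356 with a single peak per tooth, the median distance was 10 bp between the molars and 10 bp between incisor and lower molar, and 94.9% and 93.1% lay within 100 bp.

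Some regions had a lower-ranked peak in an excluded library, and the same share was not taken for the compared classes. Below rank 38000, 320 of the 1363 (23.5%) had a further deposited peak in 1 or more of the 4 excluded libraries, and 1043 (76.5%) had none at any rank. The first ectoderm list contributed 195 (14.3%) and the first Sox2-positive list 150 (11.0%), whereas the second ectoderm list gave 46 (3.37%) and the second Sox2-positive list 6 (0.440%). The lists reach 42850, 3829, 11719 and 326 peaks beyond the limit in that order, and the share did not follow these lengths throughout, although the library with the fewest gave the lowest. Of the 150 in the first Sox2-positive list, 37 lay within the next 1000 ranks.

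The regions lay mostly away from gene ends. Position was not used by the selection. The median distance from a region's centre to the nearest end of a protein-coding gene was 27.4 kb (quartiles 9.55 and 75.9 kb), and 473 (34.7%) were more than 50 kb away. Within 1 kb of a gene end lay 35 (2.57%, Wilson 95% interval 1.85 to 3.55). The share was 58.6% in regions of all 7 libraries, a difference of −56.0 percentage points (Newcombe 95% interval −57.1 to −54.8). Against the regions of both molars alone (2.41%) the difference was 0.154 points (−0.745 to 1.23), and against all day 2 libraries without ectoderm (3.42%) it was −0.853 points (−1.75 to 0.239). By these intervals the distal position was apart from the regions open everywhere and not from the other restricted classes. All intervals of this paragraph cover the counting of regions only, since regions are not replicates of a condition. Inside a gene lay 803 (58.9%, 56.3 to 61.5), against 53.0% for both molars alone, a difference of 5.92 points (2.84 to 8.96). Against the incisor alone (56.5%) the difference was 2.46 points (−0.653 to 5.55) and against all day 2 libraries without ectoderm (56.0%) 2.87 points (−0.112 to 5.80), and both intervals include 0. In regions of all 7 libraries 72.3% lay inside a gene, a difference of −13.4 points (−16.2 to −10.7).

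**Figure D3:**
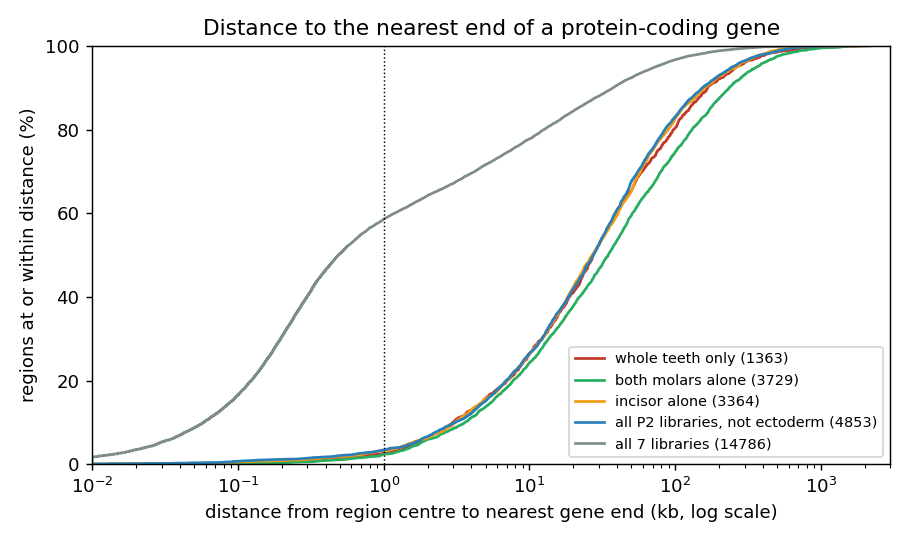
Cumulative share of regions (vertical axis, %) at or within a given distance of the nearest protein-coding gene end (horizontal axis, kb, log scale), 1 line per class of region; the dotted line marks 1 kb. The whole-tooth-only line, with 2.57% within 1 kb, runs close to the other restricted classes and far from the regions of all 7 libraries with 58.6%.

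The regions were scattered over the genome. Their median width was 579 bp, against 504 bp for both molars alone, 446 bp for the incisor alone, 846 bp for regions of all day 2 libraries without ectoderm and 1420 bp for regions of all 7. Merging more libraries widens a region, so widths of these classes are not on equal terms. Every autosome held some, from 1.39% of the merged regions of chromosome 9 to 2.48% of those of chromosome 6, and 132 (9.68%) lay within 50 kb of another. The closest pair was 1524 bp apart.

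Sequence was at hand for promoter windows of the RefSeq GRCm38.p6 table, from 250 bases before a start to 50 after it. In all, 26 such windows, of 24 genes, touched 24 of the 1363 regions (1.76%), and 12 of these genes are protein-coding. The share of regions touched was 1.05% for both molars alone and 2.29% for the incisor alone. It was 3.61% for all day 2 libraries without ectoderm. The whole-tooth-only share thus lay between the lowest and the highest of these classes, and the differences were not tested. In 6 protein-coding genes the 250 bases before the start lay wholly under a peak of each tooth. The printed bases run 5′ to 3′ on the strand of the gene. Capitals mark matches on either strand to CAGATG (a TWIST-type E-box), TGTGGT (RUNX), TGANTCA (AP-1), GGAATG (TEAD), CCGGAAG (ETS) or TAATTA (homeobox). The 6 printed are the protein-coding ones among the 26 windows with all 250 bases under a peak of each tooth. They are Fetub on the plus strand at chr16:22918132-22918381, Mettl11b on the minus strand at chr1:163725233-163725482, Sec14l1 on the plus strand at chr11:117135758-117136007, Serpina3i on the plus strand at chr12:104262872-104263121, Papln on the plus strand at chr12:83763384-83763633 and Abr on the minus strand at chr11:76509420-76509669.
Fetub: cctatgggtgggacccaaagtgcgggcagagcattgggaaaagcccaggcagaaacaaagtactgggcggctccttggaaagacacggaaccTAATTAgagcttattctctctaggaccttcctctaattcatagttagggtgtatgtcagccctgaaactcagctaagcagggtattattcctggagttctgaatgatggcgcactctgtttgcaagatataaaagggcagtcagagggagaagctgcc
Mettl11b: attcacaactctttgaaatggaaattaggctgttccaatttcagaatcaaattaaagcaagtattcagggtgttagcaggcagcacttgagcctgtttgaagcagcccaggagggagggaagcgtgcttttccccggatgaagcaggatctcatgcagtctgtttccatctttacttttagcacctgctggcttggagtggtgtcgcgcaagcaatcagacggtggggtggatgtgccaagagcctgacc
Sec14l1: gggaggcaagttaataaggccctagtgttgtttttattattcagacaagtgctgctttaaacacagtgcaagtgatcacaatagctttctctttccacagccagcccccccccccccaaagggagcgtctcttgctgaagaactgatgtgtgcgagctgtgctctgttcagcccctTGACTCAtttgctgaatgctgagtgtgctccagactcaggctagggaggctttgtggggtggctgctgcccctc
Serpina3i: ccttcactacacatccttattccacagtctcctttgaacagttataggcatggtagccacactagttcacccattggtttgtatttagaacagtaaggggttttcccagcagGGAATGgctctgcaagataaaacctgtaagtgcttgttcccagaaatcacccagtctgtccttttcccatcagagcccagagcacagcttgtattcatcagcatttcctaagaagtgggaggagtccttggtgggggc
Papln: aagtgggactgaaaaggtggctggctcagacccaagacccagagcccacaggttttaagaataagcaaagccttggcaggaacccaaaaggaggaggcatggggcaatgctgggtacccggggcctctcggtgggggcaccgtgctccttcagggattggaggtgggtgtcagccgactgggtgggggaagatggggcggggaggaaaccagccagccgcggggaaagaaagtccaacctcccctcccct
Abr: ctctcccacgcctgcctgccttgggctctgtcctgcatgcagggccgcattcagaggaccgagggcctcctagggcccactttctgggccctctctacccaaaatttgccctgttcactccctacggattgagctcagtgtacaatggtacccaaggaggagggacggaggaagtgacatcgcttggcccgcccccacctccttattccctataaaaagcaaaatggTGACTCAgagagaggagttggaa

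Fetub, which encodes the protease inhibitor fetuin-B, had the most significant of these 6 in every tooth, with a −log10 p of 5.68 in the incisor, 6.68 in the lower molar and 5.67 in the upper molar. Mettl11b, an N-terminal methyltransferase gene, had 4.39, 5.07 and 5.35 in the same order. Sec14l1, a gene of the lipid-binding SEC14 family, had 4.36, 5.37 and 4.92. The serpin gene Serpina3i had 4.01, 4.60 and 4.62, close to the limit of the incisor list. Fetub, Mettl11b, Sec14l1 and Serpina3i had no deposited peak in any excluded library at any rank, whereas Papln, which encodes the matrix protein papilin, and Abr, a GTPase regulator gene, each had weaker peaks in 2. In the printed bases Fetub has 1 homeobox match, Sec14l1 and Abr have 1 AP-1 match each, Serpina3i has 1 TEAD match, and Mettl11b and Papln have none of the 6.

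The 250 bases were searched on both strands for 15 motifs, and the shares are set beside those of all 31396 promoter windows on chromosomes 1 to 19. AP-1 letters, TGANTCA, were present in 5 of the 26 windows (19.2%), against 6.77%. GGAATG was in 5 against 12.5%, TGTGGT in 4 against 14.0%, CAGATG in 3 against 14.5%, TAATTA in 2 against 4.81% and CCGGAAG in 2 against 7.01%. Of the other 9, GGGCGG (SP/KLF) was in 6 (23.1%) against 33.0%, TGACAG (MEIS) in 2 (7.69%) against 15.7%, CCCTC (CTCF core) in 17 (65.4%) against 60.9%, GCCNNNGGC (AP-2) in 3 (11.5%) against 13.9% and AACNGGTT (grainyhead) in 1 against 1.78%. The LEF/TCF letters ATCAAAG were in none, against 3.23%, and the same held for the PITX letters TAATCC, against 6.26%. The forkhead letters TGTTTAC were also in none, against 3.21%, as was the remaining motif, AGATAAG, against 2.72%. The GC content of the 250 bases had a median of 50.6%, against 52.4% over all windows. These are counts in few windows, some of which share a gene, and a match is a run of letters and not a binding site. At Gm31816, A630095N17Rik and Dctd the searched bases lay wholly outside the whole-tooth-only region, which only the end of the window touched. Gm31816 is counted for CCGGAAG and A630095N17Rik for GGAATG, so those matches were not in the regions. The windows of 5033421B08Rik start at chr12:8510913 and chr12:8510914, so its 1 TGTGGT and 1 CAGATG are each counted in both. No miRNA hairpin of the 1005 in the RefSeq table lay under a region.

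Of the 8 regions with the best mean rank by signal, 3 lay inside a gene. The first lay on chromosome 13 at chr13:52301570-52302725, 202 kb from Diras2, a small GTPase gene, with signals of 1111 in the incisor, 3126 in the lower molar and 2897 in the upper molar. The second, at chr5:74876553-74877990, was 128 kb from Chic2. Others lay inside Ppp6r2, which encodes a phosphatase subunit, at chr15:89213875-89215097, inside Map2, a microtubule protein gene, at chr1:66374524-66375348, and inside Ccsap at chr8:123847063-123849028. The remaining ones were nearest to Mib1, a ubiquitin ligase gene of Notch signalling, 4930438A08Rik and Tex48. By p-value both molars had a better rank than the incisor in all 8, whereas by signal the incisor ranked best at Ccsap (8962, against 9117 in the lower molar and 14348 in the upper molar), and the region near Tex48 alone had a weaker excluded peak, at rank 41732 of the first Sox2-positive list.

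Within 1 kb of a gene end the best-ranked region was at Galnt6, which encodes a transferase of O-linked glycosylation, at chr15:100727800-100729775. Its −log10 p was 5.81 in the incisor, 6.03 in the lower molar and 5.47 in the upper molar, and the first ectoderm list held a weaker peak at rank 54690. The next was the Fetub region, at chr16:22917935-22918802. The others were at Nek9, a mitotic kinase gene, Mettl11b, Rcor1, a corepressor gene, Capns2, a calpain subunit gene that lies in Lpcat2, Mars2, a mitochondrial tRNA synthetase gene, and Tasp1, a protease gene. At Capns2 the molars ranked 7558 and 7357 and the incisor 34504, so the incisor peak was near the limit.

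Within 50 kb of a gene or inside it lay 1118 regions, spread over 1011 genes, of which 915 had 1, 87 had 2, 8 had 3 and 1 had 5. The gene with 5 was Sgms1, which encodes a sphingomyelin synthase, with 5 of its 19 regions, while 13 of the 19 were found in every tooth. Its regions ranked 6545, 36998, 27064, 35441 and 35147 in the incisor, and 22268, 17729, 8930, 14646 and 19988 in the lower molar. In the upper molar they ranked 27277, 26459, 8059, 18641 and 20614. The first favoured the incisor and the other 4 the molars. The third also had weaker peaks in the first ectoderm list (rank 58363) and the first Sox2-positive list (rank 38040, just past the limit).

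**Figure D4:**
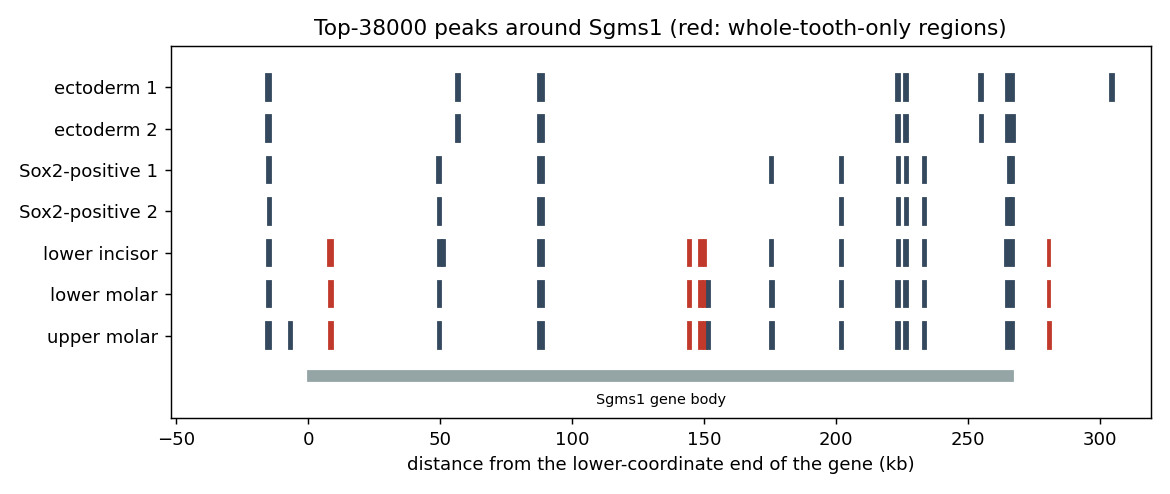
Peaks among the first 38000 of each library (1 line per library) along Sgms1, against the distance in kb from the end of the gene with the lower coordinate; bars are widened slightly to be visible. Red marks the 5 whole-tooth-only regions, which have peaks in the 3 tooth lines and none in the other 4.

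The 8 genes with 3 regions were Dgki, a diacylglycerol kinase gene, Enoph1, Hk2, which encodes a hexokinase, Igf1r, a growth factor receptor gene, Klhl29, Pard3, a cell polarity gene, Slc24a3, an ion exchanger gene, and Ttc39b. Igf1r held 33 regions of any kind and Pard3 32, more than Sgms1. The 15 genes with the most regions were completed by 2900026A02Rik, the chemokine receptor gene Ackr3, the actinin gene Actn4, the metalloprotease gene Adam10, Aim2 and Ank, with 2 each, taken alphabetically among genes with that number.

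The share of these regions at mesenchyme genes was near that over all genes. Of all regions assigned to a gene, 1.72% were whole-tooth-only. At the 3 lists of dental mesenchyme regulators, odontoblast and bone matrix genes, and mesenchymal collagen and matrix genes the count was 12 of 868 (1.38%, Wilson 95% interval 0.793 to 2.40), at 11 of 106 genes. The interval held the background of 1.72%. At the lists of epithelium and of dental epithelium and enamel genes it was 9 of 543 (1.66%, 0.874 to 3.12). Msx2 is in a mesenchyme and an epithelium list, so its 1 region is counted in both the 12 and the 9. The mesenchyme value moved when either Sox2-positive library was left out of the selection. Without the second the share was 3.34%, against a background of 2.67%. Without the first it was 2.42%, against a background of 2.75%.

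**Figure D5:**
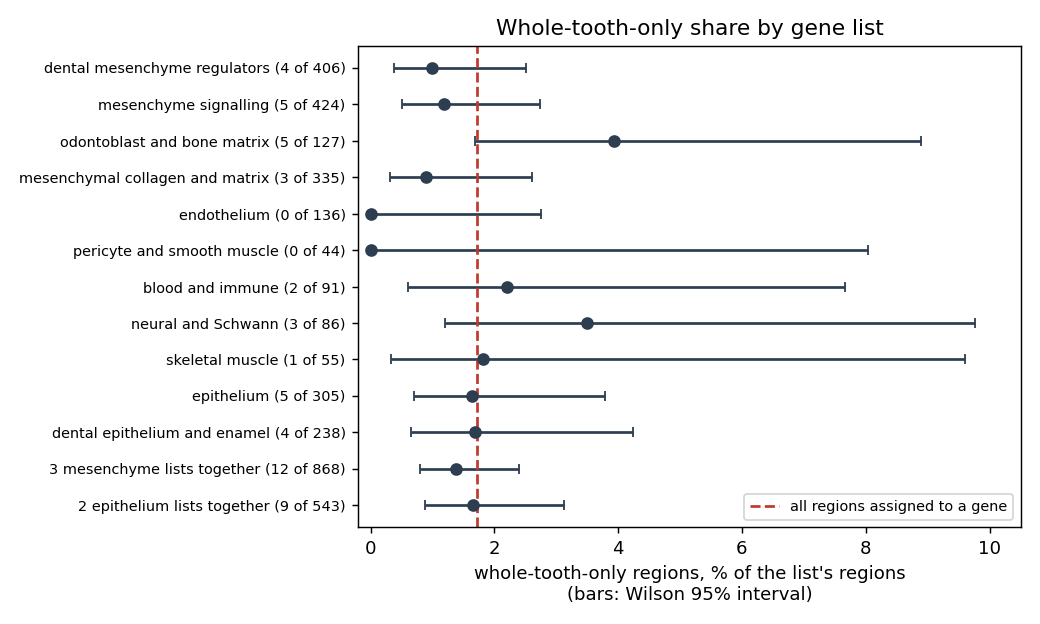
Whole-tooth-only regions as a share of all regions assigned to each gene list (horizontal axis, %), with Wilson 95% intervals as bars and the share over all assigned regions, 1.72%, as a dashed line. The odontoblast and bone matrix list has the highest value, 3.94%, and its interval reaches from 1.69 to 8.89.

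Regions with a peak in all 3 teeth and none in ectoderm were also counted by their Sox2-positive peaks. Among all assigned regions of that kind, 1118 of 6419 (17.4%) had no Sox2-positive peak. At the 3 mesenchyme lists it was 12 of 120. At the 2 epithelium lists it was 9 of 54 (16.7%). Peaks in both Sox2-positive libraries were found in 82 of the 120, in 35 of the 54 and in 4010 of all 6419. The 3 mesenchyme lists lay on both sides of the 17.4% background: odontoblast and bone matrix had 5 of 21 (23.8%), dental mesenchyme regulators 4 of 44 (9.09%) and collagen and matrix genes 3 of 55 (5.45%). These differences were not tested.

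The odontoblast and bone matrix list had the highest share, 5 of 127 (3.94%, 1.69 to 8.89), with a lower bound just under the 1.72% background. Its members were at Ank, which encodes a pyrophosphate transport protein (2 regions), Dmp1, the dentin matrix protein gene, Ibsp, the bone sialoprotein gene, and Fam20c, the kinase of secreted matrix proteins. Dmp1 and Ibsp are neighbours on chromosome 5. The Dmp1 region, at chr5:104205988-104206299 inside the gene, ranked 31197 in the incisor, 22299 in the lower molar and 31601 in the upper molar. The Ibsp region, at chr5:104261778-104262386, ranked 27320, 16443 and 15783, and that of Fam20c, at chr5:138757108-138757920, 31211, 14673 and 16615. None of these 3 had a weaker peak in an excluded list, and all 3 ranked highest in a molar. The Ank regions had no weaker peak either. They ranked 15157 and 36738 in the incisor, 27419 and 34980 in the lower molar and 36842 and 30986 in the upper molar. The first of them thus ranked highest in the incisor. Over all 127 regions of the list, 70.1% had a peak in the incisor, 45.7% in the lower molar and 37.8% in the upper molar. Of all regions assigned to a gene, 50.6%, 50.3% and 50.1% had one in the same order. In the first and second Sox2-positive libraries the list had 33.9% and 59.1%, against 49.1% and 49.4% of all assigned regions.

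Of dental mesenchyme regulators, 4 of 406 regions (0.985%) were whole-tooth-only, 1 each at the homeobox genes Dlx2, Dlx5 and Msx2 and at the forkhead gene Foxf1. Signalling genes of the mesenchyme had 5 of 424 (1.18%), 3 at the ligand genes Bmp7, Tgfb2 and Wnt10a and 2 at the receptor genes Fgfr1 and Tgfbr2. The Tgfbr2 region, at chr9:116105667-116106391 in the gene, ranked 17517 in the incisor, 9804 in the lower molar and 11710 in the upper molar. Collagen and matrix genes had 3 of 335 (0.896%), at Col5a1, Col27a1 and the fibronectin gene Fn1. None of these lists stood above the background of 1.72%.

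Lists of other cell types of the tooth were small, with 44 to 136 regions each. Endothelium had 0 of 136 regions (Wilson upper bound 2.75%) and pericytes and smooth muscle 0 of 44 (8.03%). Blood and immune genes had 2 of 91 (2.20%), at Runx1, a transcription factor gene of blood development, and Oscar, a receptor gene of osteoclasts. The Runx1 region, at chr16:92858055-92858895 and 32.4 kb from the gene, ranked 16613 in the incisor, 5323 in the lower molar and 3763 in the upper molar, the best upper molar rank of all 1363. Neural and Schwann genes had 3 of 86 (3.49%), Mbp and Mitf among the genes that held them, and skeletal muscle 1 of 55 (1.82%), at Ttn. The shares of blood and immune, neural and Schwann, and skeletal muscle genes lay above the background of 1.72% and the other 2 below it, and the intervals of all 5 lists included it.

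Epithelial genes held regions of the kind as well. Krt14, the keratin gene of basal epithelial cells, had 2 of its 7 regions, and all 7 had a peak in all 3 teeth. They lay outside the gene at chr11:100200032-100200818 and chr11:100215211-100215784 and ranked 36659 and 29128 in the incisor, 19971 and 14014 in the lower molar and 17683 and 18901 in the upper molar. The first had a weaker peak in the first ectoderm list, at rank 74494. Trp63, the transcription factor gene of stratified epithelia, and the laminin genes Lama3 and Lamb3 had 1 each, and the Trp63 region had a weaker peak in the first Sox2-positive list, at rank 40490. The keratin gene Krt75 had 1, at chr15:101563915-101564728, again with a weaker peak in the first ectoderm list.

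On chromosome 1 the neighbouring ligand genes Wnt6 and Wnt10a held 3 regions. Those of Wnt6, at chr1:74763831-74764425 and chr1:74765498-74765955, ranked 21083 and 25217 in the incisor, 5978 and 27824 in the lower molar and 7282 and 35703 in the upper molar. That of Wnt10a, at chr1:74797354-74797966, ranked 27981, 33114 and 35709. The first Wnt6 region was high in both molars, and all 3 had a weaker peak in the first ectoderm list.

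Of all regions assigned to a gene, 1.72% were whole-tooth-only. At 18 named loci of tooth tissues it was 3 of 97, 2 at Krt14 and 1 at Dmp1. The loci held at most 15 assigned regions each, and absence at single loci was not tested. Col3a1 had no assigned region, and the others had none of the kind, the mesenchyme genes Msx1, Pax9, Runx2, Sp7, Twist1, Prrx1, Pdgfra, Bmp4 and Col1a1 included. Pdgfra, a growth factor receptor gene of mesenchyme, had 12 regions, 5 of them in all 3 teeth and 10 with a Sox2-positive peak. Sp7, the osterix gene of bone-forming cells, had 7, of which 5 were in all 3 teeth and all 7 had a Sox2-positive peak. Col1a1, the type I collagen gene, had 10, of which 3 were in all 3 teeth and 7 had a Sox2-positive peak. Among the other mesenchyme loci, a Sox2-positive peak was in 2 of 5 regions at Msx1 and at Prrx1. At Runx2 it was 8 of 15, at Bmp4 6 of 9, at Pax9 4 of 5 and at Twist1 2 of 2. Of all assigned regions, 49.1% had a peak in the first Sox2-positive library and 49.4% in the second. The share with a peak in either library was not taken over all regions.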

How the data were processed

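ATAC-seq peaks of 7 mouse libraries were used as the authors deposited them, 1 narrowPeak list per library. The submitters' processing notes name FastQC, Trimmomatic, Bowtie2, deepTools, Genrich and build mm10; versions, options, read filters and any shift of reads are not given in the sources used here. The deposited signal of a peak and its deposited −log10 p served only to rank peaks within a list, and the deposited summit offsets to compare summits. The regions, gene lists and rules were chosen with earlier results of these data known.

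Genes came from the RefSeq table of GRCm38.p6, which gives no strand, so a region was assigned to the nearest protein-coding gene if its centre lay inside it or within 50 kb of either end. Between 40.8% and 48.9% of promoter windows lay under a peak in place, against 3.19% to 5.32% when moved by 50 kb. The planned scan of region sequence was replaced by RefSeq promoter windows, which include none of chromosome 18, with motifs of under 10 letters. Genes named are the 15 with most regions, up to 5 per list, the 8 best-ranked regions by signal, the 8 best-ranked within 1 kb of a gene end, and 18 loci; 1 gene that the rule names is not reported here. Shares have Wilson and differences Newcombe 95% intervals (statsmodels 0.14.6, pandas 2.3.3, Python 3.11.15). The code was tested on simulated data. Alternatives took other list lengths, signal order, stricter overlap, summit windows, chromosome X, other gene distances, or left out each replicate.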

Additional observations from a re-analysis of the deposited data

Results flagged for a closer look

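Of the 1363 whole-tooth-only regions, 320 had a lower-ranked deposited peak in 1 or more of the excluded ectoderm and Sox2-positive libraries, in the part of the lists beyond rank 38000 that the selection did not read. On chromosome X, which the selection leaves out, 8 of 1156 merged regions (0.692%) had the whole-tooth-only pattern when that chromosome was included.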

How the results depend on the processing

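With all deposited peaks the whole-tooth-only regions numbered 5066, and leaving out each replicate gave 1397 to 2186, the higher values without the first (2186) or second (2113) Sox2-positive library. The other settings gave 958 to 1793. The share near a gene end was 4.82% with 200 bp summit windows, 1.61% with a 500 bp limit and 7.997% with a 2.5 kb limit, and 2.72% to 3.20% with replicates left out. The share at the mesenchyme lists was 4.23% with all deposited peaks (background 3.89%), 0.694% with lists taken by signal (background 1.60%), 0.916% with assignment within 25 kb, and 1.38% to 3.34% with replicates left out. Without the second Sox2-positive library it was 3.34% against a background of 2.67%, and this setting and the use of all deposited peaks were the only ones of 13 tried that put it above its background. The share at the epithelium lists was 3.75% with all deposited peaks (background 3.89%) and 1.66% to 2.58% with replicates left out. It lay below its background in 10 of the 13 settings. Above it were stricter overlap (2.39% against 2.28%) and 200 bp summit windows (1.82% against 1.65%). The selection without the second ectoderm library was above it too (1.84% against 1.78%). No paired analysis was possible because the results come from no test and the whole teeth have 1 library each. List length, unknown depth and the p-value reached at rank 38000 limit what an absent peak shows. The cause of these shifts was not tested.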
